A study of Rattus norvegicus with 2 samples.

Results

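The calcium/calmodulin-dependent kinase (CaM kinase) genes were described in a table of m6A peaks from lead-exposed rat hippocampal neurons, by taking every peak whose deposited gene name was one of 10 members. The members were the CaMKII subunit genes Camk2a, Camk2b, Camk2d and Camk2g, the genes Camk1, Camk1d, Camk4, Camkk1 and Camkk2, and the pseudokinase gene Camkv. Of the 8512 peaks in the table, 9 belonged to 4 of these 10 genes, in a table that lists 17.3% of protein-coding genes. The listed members were Camk2b with 3 peaks, Camk2g with 2, Camk1 with 3 and Camk4 with 1.

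N6-methyladenosine (m6A) is a methyl mark on adenosines of RNA, and methylated RNA immunoprecipitation enriches RNA fragments that carry it with an antibody. The table compared 1 immunoprecipitated (IP) library with 1 input library, the RNA before the pull-down, from primary hippocampal neurons of P0 Sprague-Dawley rats. Both libraries came from cultures treated with Ara-C, which stops dividing cells, on day 7 in vitro and with lead acetate (PbAc) for 48 h from day 12. The lead dose reads 5 mM in the sample labels but 5 μM in the design text, and exposure ended on day 13 or day 14, depending on the field. Unexposed neurons are not analysed here, and nothing that follows measures a lead effect. There was 1 library per group, so no value has a replicate check and no comparison has a test.

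CaM kinases are serine/threonine kinases that calcium-bound calmodulin switches on. CaMKII forms large multi-subunit holoenzymes from alpha, beta, gamma and delta subunits, and in the hippocampus it is a central enzyme of long-term potentiation at excitatory synapses. CaMKI and CaMKIV work as single chains and need phosphorylation by the CaM kinase kinases encoded by Camkk1 and Camkk2, and CaMKIV acts largely in the nucleus on the transcription factor CREB. Camkv encodes a vesicle-associated protein of this family that lacks kinase activity.

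A fold below is the linear enrichment of the IP over the peak caller's background at 1 peak. A score is 10 times the −log10 of the peak's p, so a score of 100 is a p of 1e-10. Each fold, score and p of a peak was set by the authors' peak caller. Across the table the median fold was 5.9 (quartiles 4.41 and 8.45), the median score 40.47 and the median length 161 bases. The list was permissive: its weakest score, 3.02, corresponds to a p of 0.499, and a constant false discovery rate of 100% was listed for every peak. The read depth of both libraries is unknown, because the table holds no counts. Neuron markers were listed in 8 of 12 cases, while Tubb3, Dcx, Nefl and Stmn2 had no peak. Of 5 excitatory neuron markers 2 were listed, the glutamate transporter gene Slc17a7 at 14.17-fold and Neurod2 at 9.43-fold with a score of only 5.04. The excitatory markers without a peak included Camk2a, itself one of the members described here. Of 6 inhibitory neuron markers 2 were listed, Gad1 at 9.96-fold and Calb2 at 9.59-fold. Markers of other cell types were listed in 1 of 8 cases for astrocytes, 1 of 8 for the oligodendrocyte lineage, 2 of 7 for microglia and 1 of 7 for vessels and fibroblasts. Over all protein-coding genes the listed share was 17.3%. The shares of the other cell types, from 12.5% to 28.6%, lay on either side of it. The listed markers of other cell types were Sox9 (5.78-fold), Cnp (5.59-fold), Aif1 (6.34-fold), C1qa (3.52-fold) and Col3a1 (7.2-fold, with a score of 212.81). Gfap, Mbp and Cx3cr1 were among the markers without a peak.

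CaMKII was represented by its beta and gamma subunits. Camk2b, the beta subunit gene, whose product binds actin in dendritic spines, had 3 peaks on chromosome 14. The first spanned bases 86902727 to 86902775, with a fold of 13.39 and a score of 879.15. A peak at bases 86905515 to 86905586 had a fold of 9.34 and a score of 1107. The last, at bases 86982117 to 86982256, had a fold of 9.19 and a score of 102.61, just inside a p of 1e-10 (5.48e-11). All Camk2b folds lay above the upper quartile of the table. They were spread little, with a highest-to-lowest ratio of 1.46, against a median of 1.9 (quartiles 1.46 and 2.61) in the 438 genes with 3 listed peaks on 1 chromosome. The peaks were spread widely along the chromosome, over 79530 bases, further than in 88.4% of those genes, whose median span was 16927 bases. The gaps were uneven: 2739 bases separated the first pair of peaks and 76530 bases the second pair.

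The scores of the Camk2b peaks differed far more than their folds. At a given fold, a score is higher where more reads lie in a region. Reads per peak were not available, so whether they account for the differences here was not tested. The 72-base peak of 9.34-fold had a higher score than 95.9% of the 414 other peaks within 0.5 of its fold, whose median score was 181.2. The 140-base peak of nearly the same fold exceeded only 27.3% of its 429 counterparts, whose median score was 170.59. The 49-base peak stood at 74.4% of 133 counterparts. By its highest fold Camk2b was above 78.3% of the 438 genes with 3 listed peaks on 1 chromosome. It had rank 590 among 4212 listed gene names, above 86% of them. By its highest score it had rank 391.

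Camk2g, the gamma subunit gene, had 1 strong and 1 weak peak on chromosome 15. The strong one, at bases 3718519 to 3718567, had a fold of 11.94 and a score of 273.6, a p of 4.37e-28. The weak one, at bases 3682549 to 3682608, had a fold of 5.43 and a score of 7.64, a p of 0.172. They lay 35910 bases apart, and their folds differed by a ratio of 2.2, more than in 82.3% of the 894 genes with 2 peaks on 1 chromosome. The strong Camk2g peak alone placed the gene at rank 723 by highest fold. It was 49 bases long, the same length as the Camk2b peak of highest fold, a length that 12 peaks of the table shared. Whether the 2 equal lengths reflect a shared exon length was not tested, since no gene models in the coordinates of the table were at hand.

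The remaining CaMKII genes, Camk2a and Camk2d, had no listed peak. Camk2a encodes the alpha subunit, the main CaMKII subunit of forebrain excitatory neurons, and Camk2d the delta subunit, best known from the heart. No row of the table pointed to either gene by its gene ID or by a RefSeq transcript. The table holds no input level, so a transcript without the mark and a transcript with little RNA cannot be told apart in it.

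**Figure D1:**
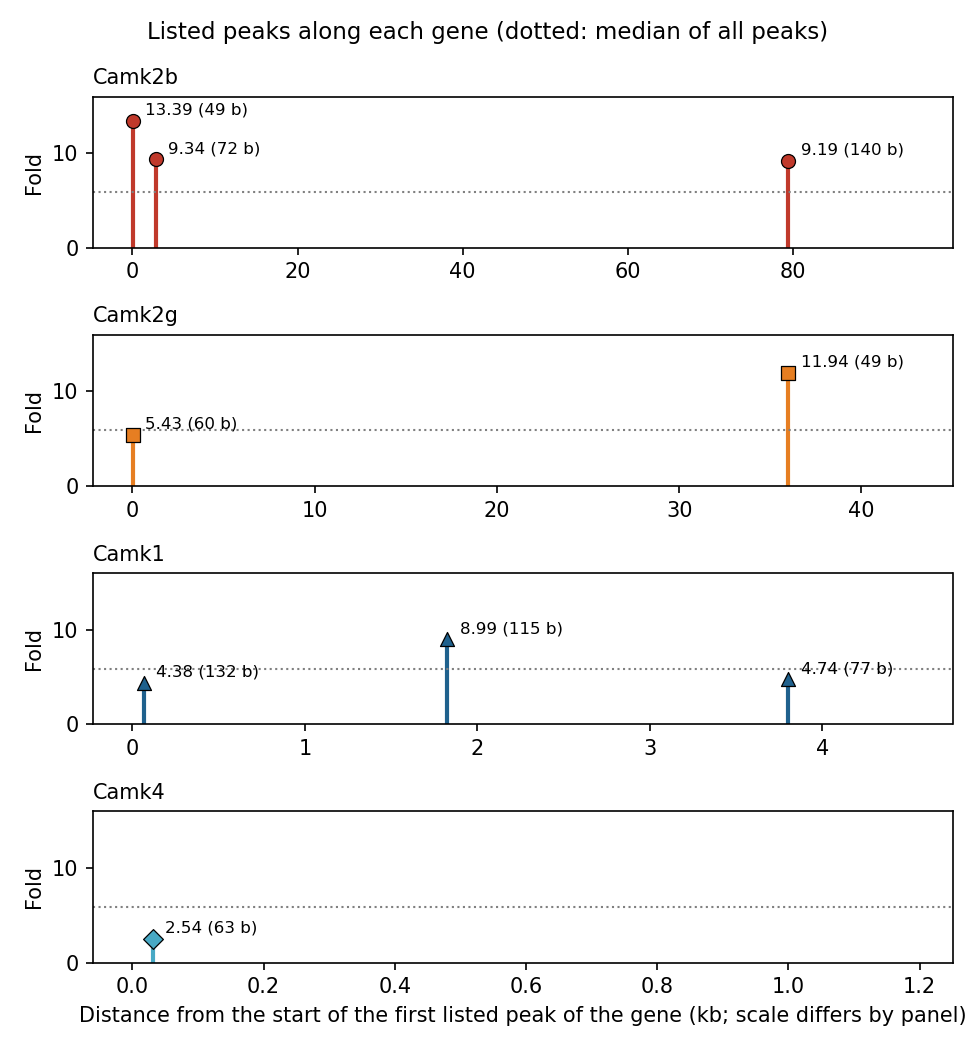
Fold enrichment of each listed peak (vertical axis) against its distance in kb from the start of the first listed peak of its gene (horizontal axis, with a separate scale for each gene). Labels give the fold and the length in bases, and the dotted line is the median of all peaks, 5.9. All 3 Camk2b peaks stand above that line over 79530 bases, whereas the 3 Camk1 peaks lie within 3842 bases and 1 of them is above it.

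Outside CaMKII, Camk1 and Camk4 were listed. Camk1 encodes CaMKI alpha, a cytoplasmic kinase with a role in axon and dendrite growth. It had 3 peaks on chromosome 4. The peak at bases 208594677 to 208594791 had a fold of 8.99 and a score of 68.99, a p of 1.26e-07. The peak at bases 208596675 to 208596751 had a fold of 4.74 and a score of 70.77, a p of 8.38e-08. The peak at bases 208592910 to 208593041 was weak, with a fold of 4.38 and a score of 4.49, a p of 0.356. Camk1 therefore had 1 peak above the median fold of the table and none at a p of 1e-10 or below.

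As with Camk2b, fold and score ranked the Camk1 peaks differently. The peak of 4.74-fold scored higher than 92.2% of 1559 peaks within 0.5 of its fold. The peak of 8.99-fold scored higher than only 14.9% of 456 such peaks. The 3 peaks lay within 3842 bases, a shorter span than in all but 8.45% of genes with as many peaks. Their highest-to-lowest ratio of 2.05 was above that of 57.5% of those genes.

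Camk4 encodes CaMKIV, the nuclear kinase of this family that phosphorylates CREB. Its single peak, at bases 25604847 to 25604909 of chromosome 18, had a fold of 2.54, at rank 8417 of the 8512 peaks. Its score was 7.79, a p of 0.166. Among listed gene names, Camk4 stood at rank 4191 of 4212 by highest fold. Camk1d, which encodes CaMKI delta, the upstream kinase genes Camkk1 and Camkk2, and Camkv had no listed peak.

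**Figure D2:**
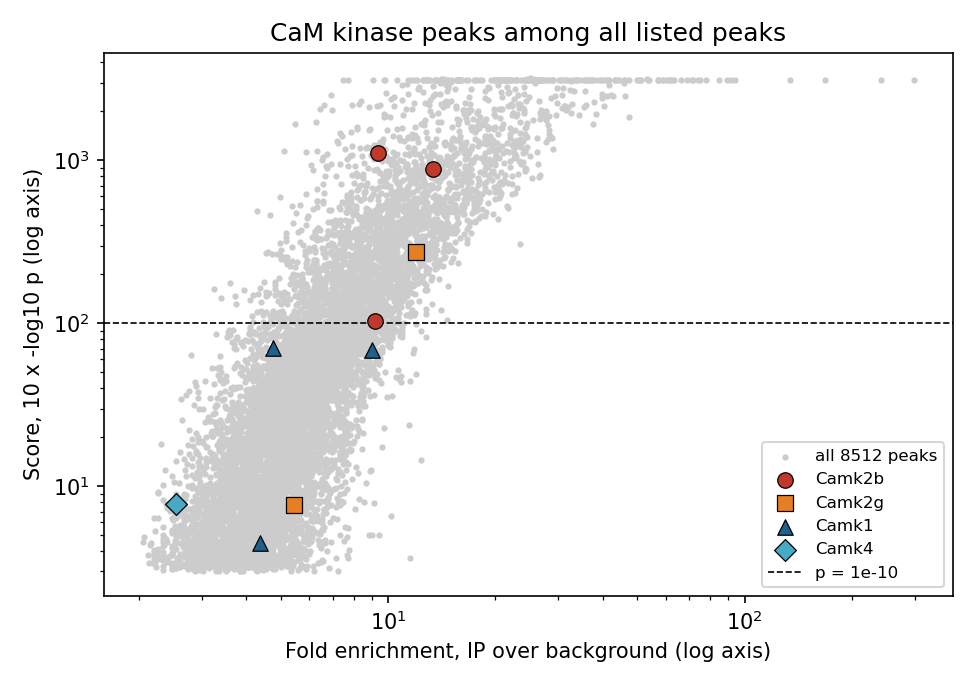
Score (vertical, log axis) against fold enrichment (horizontal, log axis) for all 8512 listed peaks in grey and for the 9 CaM kinase peaks in colour, with a dashed line at a p of 1e-10. Of the CaMKII peaks, 4 of 5 lie above the dashed line, and all 4 peaks of Camk1 and Camk4 lie below it.

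Set side by side, the CaMKII peaks had higher folds and scores than the peaks of Camk1 and Camk4, with some overlap. The 5 CaMKII peaks had folds of 5.43 to 13.39 with a median of 9.34, and the 4 other peaks had folds of 2.54 to 8.99 with a median of 4.56. The difference of the medians was 4.78. All CaMKII folds but the weak Camk2g peak lay above the highest of the other class. Median scores were 273.6 in CaMKII and 38.39 in the other class. These are peaks of 2 genes per class in 1 pair of libraries, so the difference is a description with no test.

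Scores of 100 or more, the limit used below for a strong peak, were found in 4 of 5 CaMKII peaks and 0 of 4 peaks of the other class, against 32.9% of all peaks. The looser limit of 1e-5 on p was passed by 4 CaMKII peaks and 2 others, against 45.8% of all peaks. The limit of 0.05 was passed by the same numbers of peaks, against 71.8% of all peaks. The 3 peaks above 0.05 were 1 each of Camk2g, Camk1 and Camk4. Folds of 10 or more were found in 2 CaMKII peaks and 0 others, against 17.3% of all peaks. Folds of 5 or more were found in 5 CaMKII peaks and 1 other, against 64.3% of all peaks. The share of all 9 member peaks at 5-fold or more was 66.7%, near that background.

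By gene, both classes had 2 listed members, of 4 CaMKII genes and of 5 CaMKI, CaMKIV and CaMKK genes. In the whole set 4 of 10 members were listed, against 17.3% of protein-coding genes. Members with a strong peak were Camk2b and Camk2g, 2 of 10, against 7.01% of protein-coding genes. Many protein-coding genes are not expressed in neurons, so these shares depend on expression as well as on enrichment by the antibody.

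All 9 member peaks were shorter than the median peak of the table. Their lengths ran from 49 to 140 bases, with a median of 60 in CaMKII and 96 in Camk1 and Camk4. Lengths under 100 bases were found in 4 of 5 CaMKII peaks and 2 of 4 others, against 18.5% of all peaks. The 2 peaks with the highest folds were also the 2 shortest. Among the 1575 peaks of the table under 100 bases, whose median fold was 5.5, the 49-base Camk2b peak had a higher fold than 93.7% and the 49-base Camk2g peak a higher fold than 90.7%. The 72-base Camk2b peak had a higher score than 97.1% of these short peaks. At the other end, the Camk4 peak of 63 bases had a higher fold than 2.73% of them. The 9 peaks covered 757 bases in all.

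**Figure D3:**
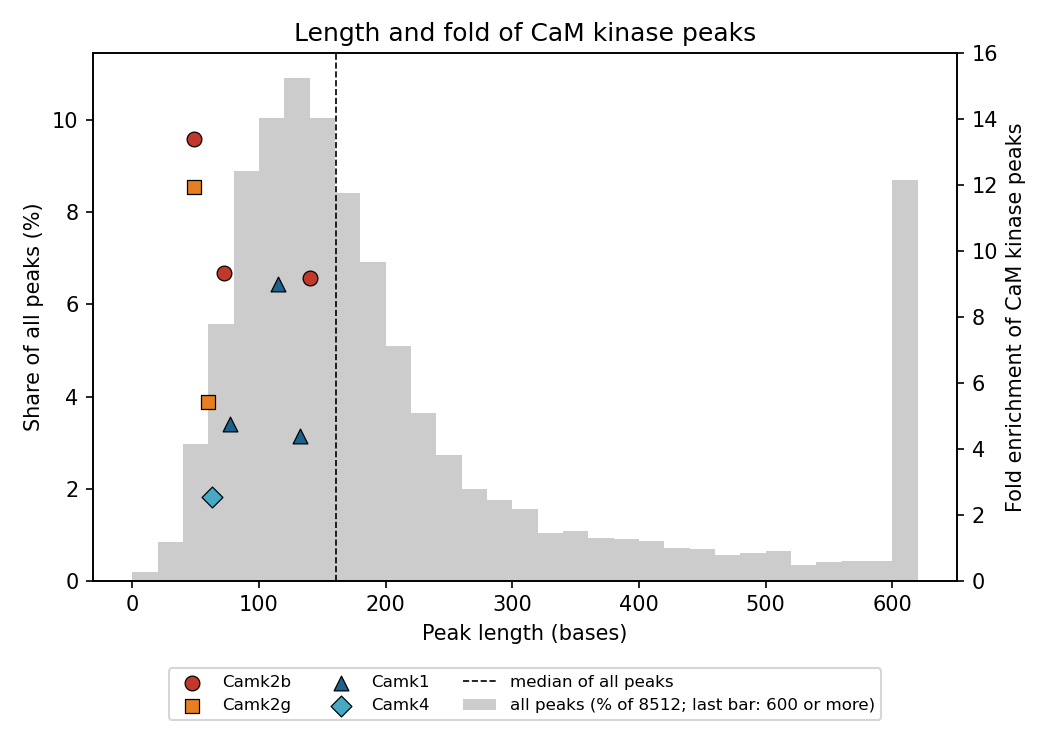
Length of the CaM kinase peaks in bases (horizontal axis) against their fold enrichment (right axis, coloured symbols), over the share of all 8512 peaks in 20-base bins of length (left axis, grey bars, with lengths of 600 bases or more in the last bar). All 9 symbols lie left of the dashed median of 161 bases, and the symbols with the highest folds are the 49-base peaks of Camk2b and Camk2g.

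The peak numbers of the table bear on what was called around each gene. Numbers ran in order of position on all 21 chromosomes, up to 14090, and 5578 of them (39.6%) were not listed. What the missing numbers stood for is not recorded in the table. The peaks of Camk2b, of Camk2g and of Camk1 carried consecutive numbers within each gene, so no unlisted peak lay between them. Camk1 took every number, 9555 to 9557, between the chromatin reader gene Brpf1 (9554) and Tada3, an adaptor of histone acetyltransferase complexes (9558). The 3 Camk2b peaks likewise followed directly on the last peak of Aebp1 (4357), 104851 bases away, and the next listed peak lay 161399 bases beyond the last of them. Around Camk2g, 4 numbers were missing between Vcl (4476) and Fam149b1 (4486), and around Camk4 5 were missing between Bin1 (5868) and Epb41l4a (5876). The nearest listed peaks of other names lay 236801 bases before and 4698546 bases beyond the Camk2g peaks. For Camk4 these distances were 494280 and 712927 bases. No number was missing between Vcl and the first Camk2g peak (4477). Beyond the last Camk2g peak (4478), the next listed number was 4482. The Camk4 peak was number 5873, with its nearest listed neighbours at 5869 and 5876. Where the missing numbers lay within the stretches between listed peaks cannot be told.

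For the 6 unlisted genes, the nearest listed genes on either side were found from the gene order of the RefSeq table, as were those around Camk2g and Camk4. That order was not tested against the table's build, and peaks of other gene names stood between the flanking genes of Camk2b (1 peak), Camk2g (3) and Camk4 (1). For Camkk1, Zzef1 (2065) and Ncbp3 (2066) had consecutive numbers. For Camkk2 these were Anapc5 (3281) and Ift81 (3282), and for Camkv Mon1a (12820) and Rnf123 (12821). If the gene order is the same in the table's build, the numbering leaves no room for an unlisted peak at Camkk1, Camkk2 or Camkv. For Camk2a, 3 numbers were missing between Tcof1 (6030) and Ppargc1b (6034). For Camk2d, 6 were missing between Mettl14 (7490) and Ank2 (7497), and for Camk1d 2 between Cdc123 (5706) and Optn (5709). Whether any missing number stood for a peak in Camk2a, Camk2d or Camk1d cannot be told from the table.

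The functional annotation deposited with the table was examined after the peak values were known. All 4 listed members carried the term calmodulin binding, with 70 listed genes. By highest fold among these, Camk2b was at rank 18, Camk2g at rank 20, Camk1 at rank 33 and Camk4 at rank 69. Camk2b and Camk2g carried the same 25 pathway terms, Camk4 carried 11 and Camk1 2. Those 25 ranged from long-term potentiation to oocyte meiosis, gastric acid secretion and tuberculosis. Among the 28 listed genes of the long-term potentiation term, Camk2b had rank 7, Camk2g rank 10 and Camk4 rank 27, with a median highest fold of 7.52. Among the 46 of calcium signalling, their ranks were 7, 10 and 46. In the cellular component terms, Camk2b and Camk2g shared the postsynaptic density, with ranks of 19 and 25 among 120 listed genes. They also shared the sarcoplasmic reticulum membrane, with ranks of 1 and 2 among 9. Camk1 and Camk4 shared the nucleus and the cytoplasm. The listed genes whose peak number and highest fold were nearest to those of Camk2b were Srp68 (13.43), Casc3 (13.44) and Ccdc12 (13.45). For Camk1 they were Zc3h6 (8.99), Prkacb (9.01), which encodes a catalytic subunit of protein kinase A, and Dtd1 (8.94).

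Upstream of the kinases, calmodulin and its buffers had strong peaks. Of 5 such genes, 3 were listed, each with a strong peak, against 17.3% and 7.01% of protein-coding genes. Nrgn encodes neurogranin, a dendritic protein that holds calmodulin at low calcium, and it reached 28.23-fold with a score of 1440.88. Pcp4, which encodes another small calmodulin-binding protein, reached 21.02-fold. Calm2, 1 of the calmodulin genes, reached 12.77-fold, a value left uncertain because calmodulin genes resemble each other and have processed copies. Calm3 was not listed. The median highest fold of the 3 listed genes, 21.02, was above every CaM kinase peak.

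Calcium channels, pumps and stores were listed in 12 of 15 cases, 8 of them with a strong peak. The same shares over protein-coding genes were 17.3% and 7.01%. Atp2b1, a plasma membrane calcium pump gene, reached 37.4-fold in a peak of 33 bases. The calcium channel genes Cacna1a and Cacna1e reached 20.11-fold and 13.29-fold, and the pump gene Atp2b2 11.19-fold. The inositol trisphosphate receptor gene Itpr1 had 1 weak peak of 3.05-fold, and the receptor genes Itpr3, Ryr1 and Ryr3 had none. The median highest fold over the 12 genes, which held 38 peaks, was 8.435, against 6.62 over all listed gene names. Highest folds rise with peak number, so this baseline is not matched. Among genes with peaks on 1 chromosome the median was 5.45 with 1 peak and 8.25 with 3.

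Genes of other calmodulin-regulated enzymes and of CaMKII inhibitors had highest folds of 8.75 or less, although their scores varied widely. Of 14 further CaM kinase family genes, 0 had a strong peak, against 7.01% of protein-coding genes, and 3 were listed (21.4%, against 17.3%). They were Dapk1, a death-associated kinase gene, at 6.2-fold, Dclk1, a microtubule-binding kinase gene, at 4.79-fold with a score of 7.55 and Camk1g, which encodes CaMKI gamma, at 3.09-fold with a score of 6.4. Camk2n1, which encodes an endogenous inhibitor of CaMKII, was listed once, at 6.64-fold and a score of 86.89, and Camk2n2 had none. Calcineurin is the calmodulin-dependent phosphatase that opposes CaMKII at synapses. Of its 5 subunit genes, 2 were listed and 1 had a strong peak, against 17.3% and 7.01% of protein-coding genes. The regulatory subunit gene Ppp3r1 reached 8.75-fold with a score of 1201.95, above that of every CaM kinase peak. Ppp3cc stood at 5-fold with a score of 12.31, and Ppp3ca, Ppp3cb and Ppp3r2 had no listed peak. Of 11 other calmodulin-dependent enzymes only 1, Rasgrf2, had a strong peak, against 7.01% of protein-coding genes. Those listed at all numbered 6 (54.5%, against 17.3% of protein-coding genes), with a median of 5.13-fold. They included the phosphodiesterase gene Pde1b at 6.38-fold, the exchange factor gene Rasgrf2 at 6.18-fold (with its highest score, 107.58, in another peak), Eef2k, the elongation factor 2 kinase gene, at 5.82-fold and Itpka at 4.44-fold.

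Downstream, genes of synaptic partners and substrates of CaMKII were listed in 14 of 21 cases, 7 of them with a strong peak. The same shares over protein-coding genes were 17.3% and 7.01%. Kalrn, an exchange factor of dendritic spines, reached 13.66-fold, the scaffold gene Dlg4 (PSD-95) 11.52-fold, the exchange factor gene Tiam1 11.39-fold and the SNARE gene Stx1a 11.28-fold. The receptor subunit gene Grin2b, whose product docks CaMKII, had no listed peak, and neither had Grin1, Gria1 or Gria2. The list's median highest fold was 6.78, near the 6.62 of all listed gene names. Nuclear targets of CaMKIV and CaMKI were listed in 9 of 13 cases, 5 of them with a strong peak, against the same shares. Hdac5, a histone deacetylase that CaM kinases send out of the nucleus, reached 13.39-fold and Crebbp, the CREB-binding coactivator gene, 12.99-fold. The transcription factor genes Mef2c and Mef2d reached 10.6-fold and 8.54-fold. Creb1 had 3 peaks with a highest fold of 7.76. The median over these 9 genes, which held 22 peaks, was 8.37-fold, whereas Camk4 itself, with 1 peak, stood at 2.54-fold.

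**Figure D4:**
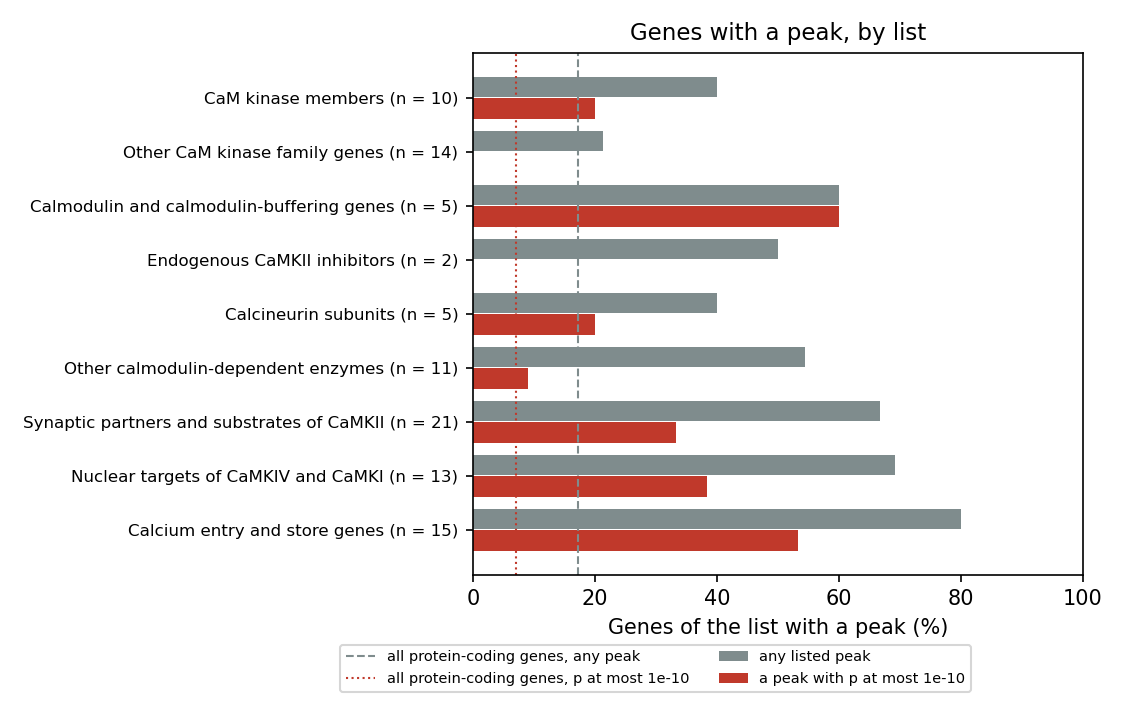
Share of genes with any listed peak (grey bars) and with a strong peak, p at most 1e-10 (red bars), for the 10 CaM kinase members and 8 lists of related genes (rows, with the number of genes), in percent. Dashed and dotted lines mark the same shares over all protein-coding genes, 17.3% and 7.01%. The CaM kinase members stand at 4 and 2 of 10 genes, and calcium entry and store genes at 12 and 8 of 15.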

How the data were processed

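The data were 1 deposited peak table of the IP and input libraries of lead-exposed neurons, grouped by sample titles. Per the labels' protocols, a kit was used to pull down m6A-containing RNA, followed by strand-preserving library preparation. Tools named in the submitters' processing notes were HISAT2 2.0.4, STAR and cutadapt 1.9.3, with no step for each. Peak names are those of MACS, per the file headers. Its version, its settings, the build and the gene models behind it were not given in the sources used here. Some positions on chromosome 4 lie beyond the last gene of assembly GRCr8, so the table's build is another one, and GRCr8 was used only for names, chromosomes and gene order.

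Fold enrichment was deposited as a linear ratio per peak, and the deposited score is the −log10 of p multiplied by 10. The false discovery rate was a deposited percent, constant throughout. Printed starts are 1 above the deposited ones, which count from 0.

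Members were matched by deposited gene name. For the lists, 7761 peaks were matched to the RefSeq table by symbol, 459 by gene ID and 23 by transcript; 269 kept the deposited name. Counts, medians and ranks were computed with Python 3.11.15, pandas 2.3.3 and numpy 2.4.6, and the functions for ranks and merging were checked on simulated data. Figures used matplotlib 3.10.9. Members, lists and rules were chosen with earlier results of these data known. All 10 members are named, with up to 4 listed genes of highest fold per list, the unlisted genes of lists of at most 5 genes, and the 3 genes nearest in highest fold among those with as many peaks as Camk2b and Camk1. Not every name under this rule is reported here. Other unlisted genes, weak peaks, and Creb1, Itpr1 and the cell type markers were named after their values were seen. Sequences of peaks were not read, for want of a genome of the table's build. Alternatives were p limits, a fold minimum, joining or merging of regions, another gene match, other summaries of fold, a length minimum and leaving out each gene.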

Additional observations from a re-analysis of the deposited data

How the results depend on the processing

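No paired analysis was possible because there was 1 library per group and no test. At a p of at most 1e-10 the 9 member peaks became 4 and the 4 listed genes 2. Under the looser p limits, the 5-fold minimum, joining within 1000 bases, merging and the other gene match, both counts stayed within 1.5 times. The difference of median folds, CaMKII minus the other class (4.78), kept its sign: 3.775 at a p of at most 0.05 or 1e-5, 2.505 with peaks of at least 100 bases, 6.9 by highest fold per gene, 4.696 by means, 6.8 without Camk1, 4.125 without Camk2b and 4.6 without Camk4. At 1e-10 it had no value, since no peak of the other class was left. Without Camk1 the other class was the single weak Camk4 peak. At a p of at most 0.05 or 1e-5 the other class held 2 peaks, both of Camk1. At 100 bases or more, 1 CaMKII peak stood against 2 Camk1 peaks. All these settings reuse the same 9 peaks and are not independent checks. The difference of median scores, added after seeing the data, was 235.21. The median length of member peaks was 72 bases, 74.5 at a p of at most 0.05 and 60.5 at 1e-10. Listed members fell with the p limit for further CaM kinase genes (3, then 1 at 0.05 and 0 at 1e-10) and calcineurin (2, then 1 and 1). At 1e-10 there were 0 CaMKII inhibitor genes, 1 other enzyme gene, 7 synaptic partners and 5 nuclear targets. Precision is limited by the unknown depth and the single pair of libraries.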
